A study of Mus musculus with 30 samples.

Results

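The genes Tap1, Tap2, Tapbp, Tapbpl, Erap1, Calr, Canx and Pdia3, which carry antigenic peptides into the endoplasmic reticulum and load them onto MHC class I molecules, were followed across interferon and STING agonist treatment in 2 mouse tumor cell lines. The group was defined by gene name, for the role of its products, and was chosen with earlier results of these data known. All 8 genes were found among the 49315 genes of the count files, and all 8 were among the 21138 genes with at least 10 reads combined over 24 libraries that were tested. B16F10, a melanoma line (B16 in the sample labels), and 6694c2, a pancreatic ductal adenocarcinoma line (C2), were each cultured for 24 h. Cells received vehicle, 100 ng/mL of IFNγ, 1000 U/mL of IFNβ or 225 μg/mL of a STING agonist. Each of these 8 groups held 3 bulk RNA sequencing libraries, and the vehicle libraries of a line were the controls for all of its treatments. The 6694c2 line came from genetically engineered female mice with a floxed p53 allele, Pdx-cre and a YFP reporter, and the labels give the background as C57BL/6. Every library of a line thus shares its genotype, each line stands for 1 tumor, and the response of other melanomas or pancreatic tumors was not measured. The sources do not say whether the 3 libraries of a group came from separate cultures, so the p-values measure only the spread among these libraries.

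Class I molecules show fragments of the cell's own proteins to CD8+ T cells. Peptides cut by the proteasome enter the endoplasmic reticulum through TAP, a pump built from Tap1 and Tap2, and tapasin (Tapbp) holds an empty class I molecule at that pump together with calreticulin (Calr) and the thiol oxidoreductase ERp57 (Pdia3). Calnexin (Canx) acts earlier on the new heavy chain, the aminopeptidase ERAAP (Erap1) trims peptides that are too long, and the tapasin relative TAPBPR (Tapbpl) edits the bound peptide away from the pump. Interferons are known to raise many genes of this pathway through IRF factors and NLRC5, whereas Calr, Canx and Pdia3 also serve the folding of glycoproteins in general.

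On the mm10 coordinates of the files, Tapbp, Tap1 and Tap2 lie in that order on the plus strand of chromosome 17, in the mouse MHC region. Tapbp spans 33915899 to 33929288, Tap1 spans 34187553 to 34197225 and Tap2 spans 34203527 to 34216321. The other 5 genes lie on chromosomes 6 (Tapbpl), 13 (Erap1), 8 (Calr), 11 (Canx) and 2 (Pdia3). The exons of Tapbpl, Erap1, Calr and Canx overlapped no other counted gene. Overlaps covered 18.5% of the exon bases of Tap2 and 726 of the 3296 exon bases of Tapbp, against 3.87% of those of Tap1 and 0.573% of those of Pdia3, almost all of it with genes on the opposite strand. Whether counting used the strand is not given in the sources used here, so the reads in these stretches are uncertain.

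Promoter sequences are shown for 4 members, because Tap1 and Erap1 moved with interferon in both lines while Calr and Canx changed by at most 1.27-fold against vehicle. RefSeq windows (GRCm38.p6, 250 bases before the annotated start to 50 after it) were at hand for 6 of the 8 genes, with no entry for Tap2 and Tapbpl. The windows below are written 5′ to 3′ along the gene, end just before the start except where stated, and carry in capitals the match to a searched motif other than the GC box. Tap1 is chr17:34187306-34187555 on the plus strand, Erap1 is chr13:74639603-74639862 on the plus strand and runs 10 bases past the start, Calr is chr8:84846932-84847181 on the minus strand and Canx is chr11:50325674-50325923 on the minus strand.
Tap1: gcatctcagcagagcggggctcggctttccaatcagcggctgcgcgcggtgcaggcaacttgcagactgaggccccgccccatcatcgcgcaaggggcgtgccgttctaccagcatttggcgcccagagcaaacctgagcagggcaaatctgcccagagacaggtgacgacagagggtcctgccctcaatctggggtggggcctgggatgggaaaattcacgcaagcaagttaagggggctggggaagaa
Erap1: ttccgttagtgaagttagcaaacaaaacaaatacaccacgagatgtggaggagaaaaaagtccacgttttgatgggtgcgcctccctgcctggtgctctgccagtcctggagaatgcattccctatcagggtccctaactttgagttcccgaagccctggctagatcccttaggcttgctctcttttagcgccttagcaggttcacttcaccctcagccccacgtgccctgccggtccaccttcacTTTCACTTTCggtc
Calr: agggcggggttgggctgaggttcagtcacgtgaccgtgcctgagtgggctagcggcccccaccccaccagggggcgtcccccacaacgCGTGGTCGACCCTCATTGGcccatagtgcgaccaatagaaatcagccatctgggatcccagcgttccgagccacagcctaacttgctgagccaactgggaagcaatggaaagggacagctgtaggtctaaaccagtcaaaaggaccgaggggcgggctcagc
Canx: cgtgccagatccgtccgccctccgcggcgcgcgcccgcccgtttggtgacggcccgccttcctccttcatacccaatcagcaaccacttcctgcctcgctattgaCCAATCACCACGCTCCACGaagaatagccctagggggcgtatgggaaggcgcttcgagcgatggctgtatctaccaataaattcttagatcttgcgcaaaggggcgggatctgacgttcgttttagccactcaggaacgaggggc

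Both strands were searched for the core of the interferon-stimulated response element (ISRE, written GAAA, any 2 bases, GAAA), the gamma-activated site (GAS, TTCNNNGAA), the endoplasmic reticulum stress element (CCAAT and CCACG with any 9 bases between them) and the GC box (GGGCGG). Matches of different motifs did not overlap. The capitals in Erap1 are an ISRE core on the minus strand from base -4 to 5, counted from 0 at the start, and 3.44% of 32851 windows of 300 bases held this motif. The capitals in Calr (-162 to -144, minus strand) and Canx (-145 to -127, plus strand) are stress elements, which 0.113% of the windows held in their 250 upstream bases. Tap1, Tapbp and Pdia3 had matches to the GC box only, a motif in 35.7% of the 300-base windows. The GAS letters, present in 8.3% of them, matched in none of the 6 windows. The upstream bases of the Tapbp window, 33919228 to 33919477, lie inside the counted gene, which begins at 33915899. The sequence before that outer end of Tapbp was not searched. The Tap1 window shares 275 of its 300 bases with that of Psmb9, an immunoproteasome subunit gene that starts 226 bases away on the opposite strand. These matches describe the letters and are not evidence of binding.

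**Figure D1:**
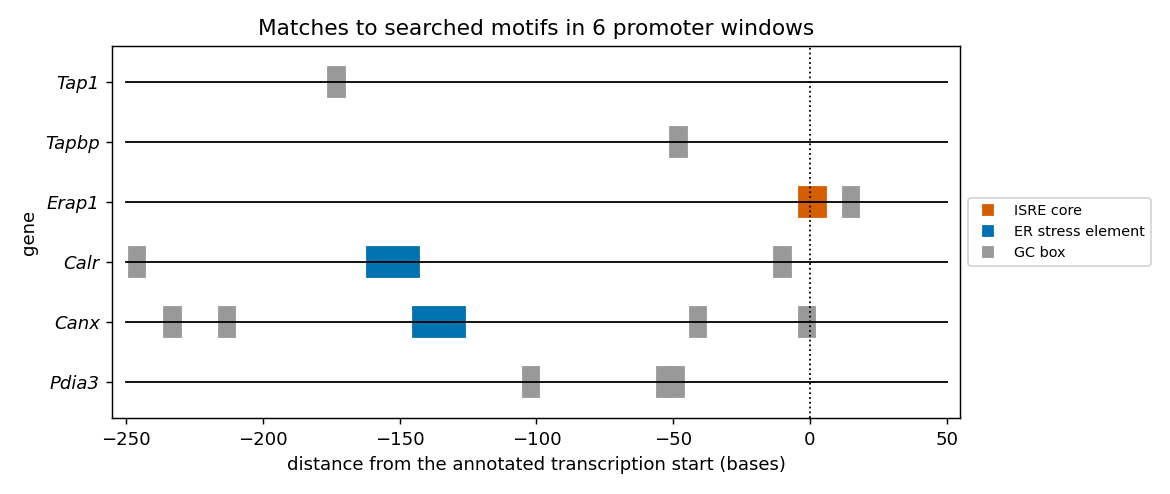
Matches to the searched motifs in the promoter windows of 6 genes, drawn by distance in bases from the annotated transcription start (dotted line); each box is 1 match on either strand. The ISRE core lies over the start of Erap1, and the 2 stress elements lie between -162 and -127 bases in Calr and Canx.

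Libraries held 15543131 to 32266795 reads on genes. Levels are given as CPM, counts scaled to a common library size with TMM factors, and levels of different genes are compared per kilobase of exon. On CPM scaled to total reads, a list of 9 melanocyte genes summed to between 20569 and 20713 CPM with vehicle in B16F10 cells and to between 83.4 and 84.9 in 6694c2 cells. For 9 ductal epithelial genes the sums were 13065 to 13981 in 6694c2 and 15.8 to 22.7 in B16F10 cells, so each line carried its own markers. Sums over 15 immune cell genes lay between 17.9 and 44.4 CPM in all libraries, with 2 to 5 of these genes at 0 throughout a group. The 24 pairs of replicates all differed by more than sampling noise. In bulk libraries, more RNA per cell and more cells that express a gene cannot be told apart.

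With vehicle, the group fell into abundant chaperones and scarce dedicated loading genes. In B16F10 cells Calr averaged 385 CPM per kilobase, Pdia3 265 and Canx 215, followed by Tapbp at 11.7, Erap1 at 4.81, Tapbpl at 4.06, Tap1 at 1.24 and Tap2 at 0.554. Neighbours in this order had libraries that did not overlap, except Erap1 and Tapbpl. In 6694c2 cells the order was the same apart from these 2 genes, which again overlapped, with Calr at 347, Tapbp at 8.08, Tap1 at 0.493 and Tap2 at 0.308 CPM per kilobase. The 3 chaperones made up 97.5% ± 0.220 (SD, n = 3) of the summed level of the 8 genes in B16F10 and 97.7% ± 0.297 in 6694c2 cells.

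Before treatment, 5 of the 8 genes were lower in 6694c2 than in B16F10 cells and 0 were higher, where 29.3% of all genes tested were lower and 28.7% higher. Tap1 was 2.54-fold lower (log2 fold change -1.34, standard error 0.160, edgeR's quasi-likelihood test, Benjamini-Hochberg adjusted over 21138 genes, adjusted p = 1.2e-09), and its libraries did not overlap between the lines. Tap2 was 1.82-fold lower (adjusted p = 0.00352), with 1 library of 6694c2 cells inside the B16F10 range. Tapbp was 1.44-fold, Canx 1.30-fold and Calr 1.11-fold lower (adjusted p = 4.14e-07, 4.39e-07 and 0.00901). The call for Calr was lost without 6694c2 vehicle replicate 2 (log2 fold change -0.13, adjusted p = 0.0515). Erap1 and Pdia3 differed by -0.039 and -0.056 on the log2 scale with 95% intervals from -0.21 to 0.14 and from -0.17 to 0.057. Tapbpl stood 0.22 higher in 6694c2 cells (adjusted p = 0.0584) and passed the threshold without B16F10 vehicle replicate 2 (0.26, adjusted p = 0.0483) or without 6694c2 vehicle replicate 3 (0.33, adjusted p = 0.00738).

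**Figure D2:**
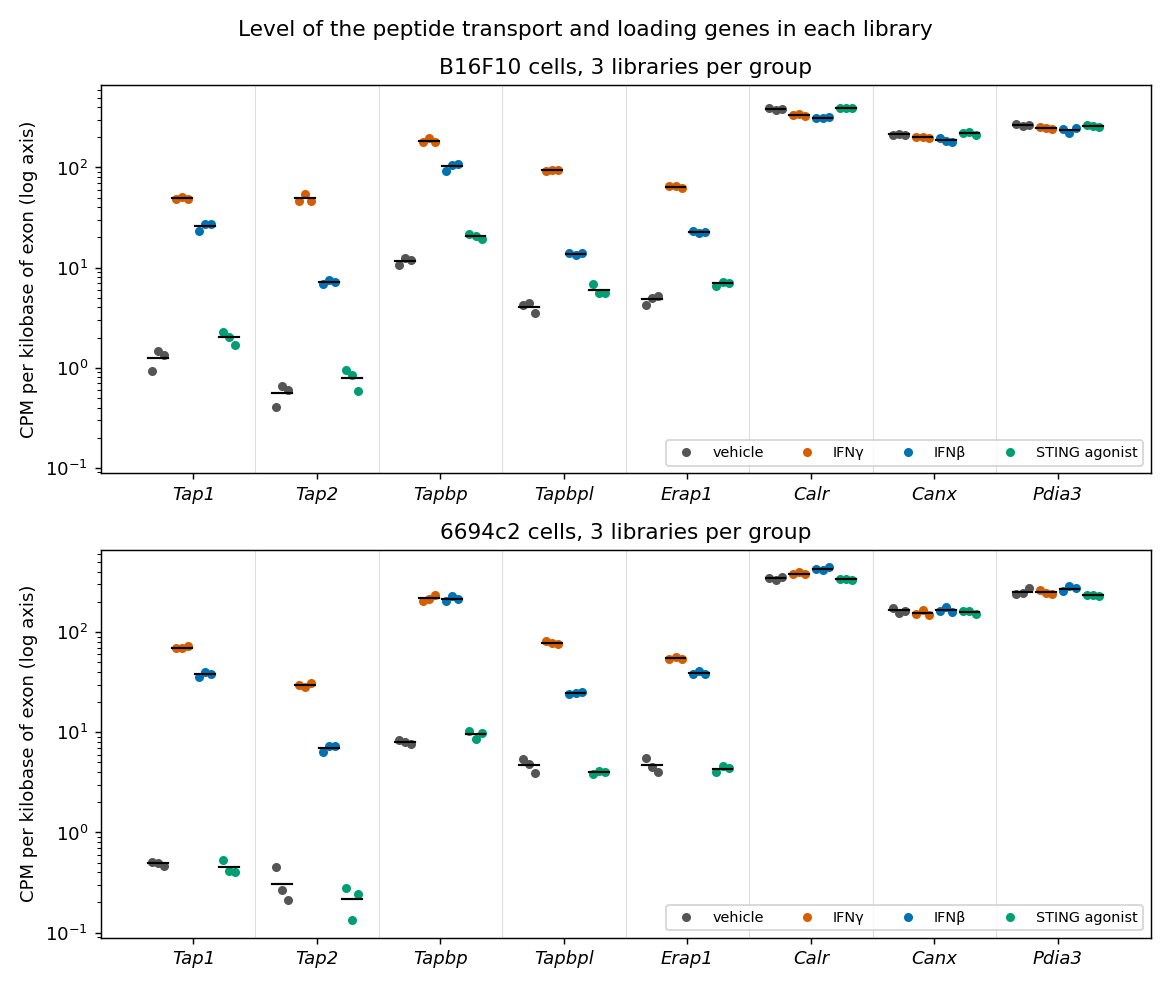
Level of each gene in every library, in CPM per kilobase of exon on a log axis, with B16F10 cells above and 6694c2 cells below; points are libraries (3 per group) and black lines are group means. Calr, Canx and Pdia3 stay between 149 and 445 CPM per kilobase in every library, while the other 5 genes are higher with IFNγ and IFNβ in both lines and 4 of them are higher with the STING agonist in B16F10 cells.

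With IFNγ, 5 of the 8 genes rose in each line, namely the TAP pump, both tapasins and Erap1, beside 12% of all genes called higher in B16F10 and 7.89% in 6694c2 cells. Lower calls were 1 of 8 in B16F10 (10.8% of all genes) and 0 of 8 in 6694c2 cells (5.66%). With IFNβ the same 5 genes rose in both lines and Calr joined them in 6694c2 cells, beside 12.7% and 10.4% of all genes. Calr, Canx and Pdia3 were lower with IFNβ in B16F10 cells (11.2% of all genes), and 0 members were lower in 6694c2 cells (7.86%). The median log2 fold change of the 8 genes was 3.86 with IFNγ and 2.00 with IFNβ in B16F10 cells and 3.82 and 2.75 in 6694c2 cells, while the median of all genes tested was 0 in 3 of these comparisons and 0.019 with IFNβ in B16F10 cells.

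Markers of the lines moved in some of the same libraries. In B16F10 cells 5 of the 9 epithelial markers were higher with IFNγ and 7 with IFNβ, with sums of 19.3 to 44.0 and 21.4 to 60.9 CPM, the latter at 0.316% of the 6694c2 vehicle mean on average. Melanocyte markers in B16F10 cells were lower for 5 of 9 with IFNγ and for 6 of 9 with IFNβ, where 1 was higher, with sums of 16514 to 17045 and 16964 to 18022 CPM. Over all genes in B16F10 cells, 12% were higher and 10.8% lower with IFNγ, and 12.7% and 11.2% with IFNβ. In 6694c2 cells the melanocyte sum, 83.4 to 84.9 CPM with vehicle, was 34.9 to 127 with IFNγ (0 of 9 called), 25.2 to 38.5 with IFNβ (7 of 9 lower) and 17.9 to 21.5 with STING agonist (6 of 9 lower). The shares of all genes lower in 6694c2 cells were 5.66% with IFNγ, 7.86% with IFNβ and 0.156% (33 genes) with STING agonist. The vehicle sum in that line was 0.408% of that in B16F10 vehicle libraries. The part of these transcripts in the results was not tested.

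Tap1, the first subunit of the pump, stood at 5.07, 8.02 and 7.27 CPM in the vehicle libraries of B16F10 cells, at 266, 281 and 266 with IFNγ and at 128, 150.4 and 148 with IFNβ. In 6694c2 cells it went from 2.80, 2.73 and 2.56 CPM to 377, 379 and 397 with IFNγ and to 194, 221 and 210.1 with IFNβ. Vehicle, IFNβ and IFNγ thus formed 3 separate bands in both lines, in that order. Against vehicle the rise with IFNγ was 39.3-fold in B16F10 (log2 fold change 5.30, standard error 0.0803, adjusted p = 7.42e-217) and 144-fold in 6694c2 cells (7.17, standard error 0.104, adjusted p = 2.63e-39). In 6694c2 cells Tap1 ranked 1 of 21138 genes by p-value in this comparison. With IFNβ the rise was 20.8-fold in B16F10 and 78.8-fold in 6694c2 cells (adjusted p = 6.25e-187 and 2.3e-38).

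Tap2, the partner subunit, stood at 1.53, 2.49 and 2.27 CPM with vehicle in B16F10 cells, at 175, 206 and 176 with IFNγ and at 25.9, 28.2 and 27.4 with IFNβ. In 6694c2 cells its vehicle libraries gave 1.69, 1.004 and 0.792 CPM, those with IFNγ 112, 108 and 118, and those with IFNβ 24.0, 27.8 and 27.4. The bands were again separate, but here the IFNβ band lay far below the IFNγ band. Tap2 rose 87.0-fold with IFNγ and 12.8-fold with IFNβ in B16F10 cells, and 97.5-fold and 23.1-fold in 6694c2 cells (adjusted p between 2.03e-211 and 2.6e-26). Its standard errors on the log2 scale, 0.101 to 0.157, were wider than those of the other members in each of these comparisons.

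Tapbp, which encodes tapasin, stood at 35.3, 40.8 and 39.3 CPM with vehicle in B16F10 cells, at 589, 655 and 596 with IFNγ and at 306, 347 and 359 with IFNβ. In 6694c2 cells the values were 27.95, 26.5 and 25.5 with vehicle, 671, 705 and 783 with IFNγ and 678, 760.3 and 701 with IFNβ. The interferon bands were apart in B16F10 cells and lay on top of each other in 6694c2 cells. Tapbp rose 15.9-fold with IFNγ and 8.81-fold with IFNβ in B16F10 cells, against 27.3-fold and 27.4-fold in 6694c2 cells. Per kilobase it overlapped Canx in B16F10 cells with IFNγ (186 and 199.8 on average), and in 6694c2 cells it lay above Canx with either interferon (218 against 156 with IFNγ, 216 against 167 with IFNβ).

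Tapbpl, which encodes the peptide editor TAPBPR, stood at 9.85, 10.51 and 8.25 CPM with vehicle in B16F10 cells, at 216, 221 and 222 with IFNγ and at 32.6, 31.3 and 32.7 with IFNβ. In 6694c2 cells it gave 12.7, 11.3 and 9.33 CPM with vehicle, 192, 184 and 180.1 with IFNγ and 56.6, 58.4 and 59.4 with IFNβ. No libraries of the 3 groups overlapped within a line. Tapbpl rose 23.02-fold with IFNγ but 3.40-fold with IFNβ in B16F10 cells, and 16.8-fold and 5.35-fold in 6694c2 cells. Among the 5 genes that rose, Tapbpl had the smallest rise with IFNβ in each line.

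Erap1, which encodes the trimming aminopeptidase of the endoplasmic reticulum, stood at 17.2, 19.8 and 20.96 CPM with vehicle in B16F10 cells, at 261, 262 and 252 with IFNγ and at 93.4, 89.4 and 90.4 with IFNβ. In 6694c2 cells the values were 22.4, 18.1 and 15.97 with vehicle, 219, 229.6 and 215 with IFNγ and 152, 163 and 154 with IFNβ. The 3 groups were apart in each line. Erap1 rose 13.3-fold and 4.72-fold with IFNγ and IFNβ in B16F10 cells (adjusted p = 2.44e-185 and 1.91e-113) and 11.8-fold and 8.49-fold in 6694c2 cells (adjusted p = 1.18e-31 and 1.46e-29). Of a list of 11 other peptidases, 3 rose and 3 fell with IFNγ in B16F10 cells and 1 rose in 6694c2 cells. With IFNβ these counts were 2 and 3 in B16F10 cells and 1 and 0 in 6694c2 cells. Among all genes, 12% were higher and 10.8% lower with IFNγ in B16F10 cells, and 12.7% and 11.2% with IFNβ. In 6694c2 cells 7.89% were higher and 5.66% lower with IFNγ, and 10.4% and 7.86% with IFNβ. A list of 11 genes is too short to set apart from these shares. Lap3, a leucine aminopeptidase of the cytosol, rose with IFNγ by a log2 fold change of 1.24 in B16F10 and 0.98 in 6694c2 cells, and this was the largest change of that list in either line.

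Calr, the soluble lectin chaperone calreticulin, moved in opposite directions in the lines with IFNβ. In B16F10 cells it stood at 1127, 1085 and 1112 CPM with vehicle, at 959, 976 and 934 with IFNγ and at 895, 893 and 910.4 with IFNβ. In 6694c2 cells it stood at 1001, 968 and 1026 with vehicle, at 1101, 1142 and 1091 with IFNγ and at 1227, 1215 and 1282 with IFNβ. Groups did not overlap in either line, with IFNβ lowest in B16F10 and highest in 6694c2 cells. In B16F10 cells Calr fell by 0.21 with IFNγ and by 0.29 with IFNβ on the log2 scale (adjusted p = 0.000131 and 8.09e-08). In 6694c2 cells it rose by 0.35 with IFNβ (adjusted p = 1.59e-05). Its log2 difference of 0.17 with IFNγ in that line had an adjusted p of 0.0516 and passed the threshold in 5 of 14 alternative fits.

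Canx, the membrane-bound lectin chaperone, stood at 1001, 1020.1 and 1002 CPM with vehicle in B16F10 cells, at 949.9, 948 and 915 with IFNγ and at 918, 869 and 851 with IFNβ. It fell by 0.19 on the log2 scale with IFNβ (adjusted p = 0.00107). With IFNγ the difference was -0.11 (adjusted p = 0.109), although the libraries did not overlap. In 6694c2 cells the libraries of all 4 groups overlapped between 702 and 848 CPM, and the differences of -0.069 with IFNγ and 0.052 with IFNβ had 95% intervals from -0.20 to 0.061 and from -0.079 to 0.18. Pdia3, the oxidoreductase ERp57, stood at 854, 812 and 833 CPM with vehicle in B16F10 cells, at 797, 778 and 758 with IFNγ and at 756, 689.6 and 774 with IFNβ. It was the weakest of the 3 declines with IFNβ, at -0.16 (adjusted p = 0.00708), and lost the call without IFNβ replicate 2 (-0.12, adjusted p = 0.106). In 6694c2 cells it differed by -0.015 with IFNγ (95% interval -0.14 to 0.11) and by 0.13 with IFNβ (adjusted p = 0.173). When libraries were scaled to total reads or when only the 2 groups were fitted, Canx and Pdia3 were also called lower with IFNγ in B16F10 cells.

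**Figure D3:**
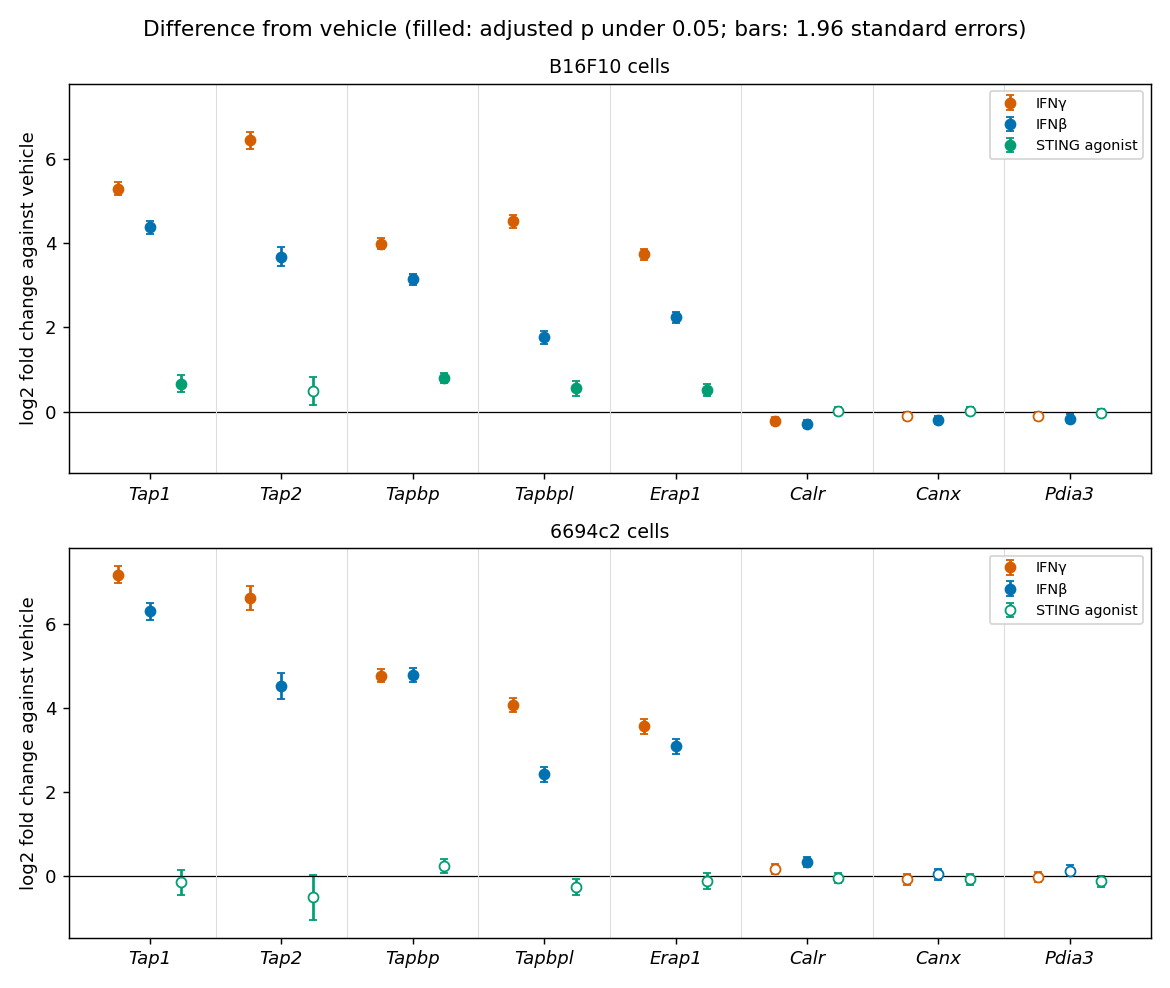
Log2 fold change of each gene against vehicle, in B16F10 cells above and 6694c2 cells below; filled points passed an adjusted p under 0.05 and bars are 95% intervals. Tap1, Tap2, Tapbp, Tapbpl and Erap1 lie between 1.76 and 7.17 with the interferons, and Calr, Canx and Pdia3 lie between -0.29 and 0.35.

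The interferons were then compared with each other, at the doses used, which are in different units and cannot be matched. In B16F10 cells 5 of 8 genes were lower with IFNβ than with IFNγ and 0 were higher (7.85% and 6.65% of all genes). In 6694c2 cells 4 were lower and 1, Calr, was higher (6.57% and 7.3%). The gap depended on the gene. Tap2 with IFNβ reached 14.6% of its IFNγ level in B16F10 and 23.4% in 6694c2 cells, and Tapbpl reached 14.7% and 31.4%. Tap1 reached 52.4% and 54.2%, so the subunits of the same pump were separated by a wide margin. Erap1 reached 35.2% in B16F10 and 70.7% in 6694c2 cells. Tapbp reached 55.01% in B16F10 cells (log2 difference -0.85, standard error 0.0537, adjusted p = 4.16e-42), whereas in 6694c2 cells it reached 99.1%, with a log2 difference of 0.0058 and a 95% interval from -0.13 to 0.14. The higher Calr with IFNβ in 6694c2 cells (0.18, adjusted p = 0.0359) lost its call in 8 of 14 alternative fits, including those without IFNγ replicate 1, 2 or 3 (0.17, 0.18 and 0.17, adjusted p = 0.117, 0.0890 and 0.113) or IFNβ replicate 3 (0.15, adjusted p = 0.153).

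These gaps showed in the ratios of partner transcripts, taken per kilobase within each library and given without a test. With vehicle, Tap1 was 2.24 ± 0.0389 times as high as Tap2 in B16F10 and 1.75 ± 0.555 times in 6694c2 cells (SD, n = 3). With IFNγ the ratio was 1.01 ± 0.0615 in B16F10 and 2.35 ± 0.0569 in 6694c2 cells, and with IFNβ it was 3.60 ± 0.180 and 5.45 ± 0.138. IFNβ libraries had the highest Tap1 to Tap2 ratios in both lines, with no overlap with the other groups. Tapbp to Tapbpl behaved alike, with 7.48 ± 0.669 and 8.75 ± 0.470 with IFNβ against 1.99 ± 0.103 and 2.78 ± 0.304 with IFNγ. Calr to Canx stayed between 1.59 and 1.87 in every B16F10 library and between 1.98 and 2.79 in every 6694c2 library. The chaperones' share of the 8 genes dropped to 63.8% with IFNγ and 81.1% with IFNβ in B16F10 cells and to 63.6% and 72.9% in 6694c2 cells. Stretches of Tap2 and Tapbp shared with other genes enter these ratios.

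**Figure D4:**
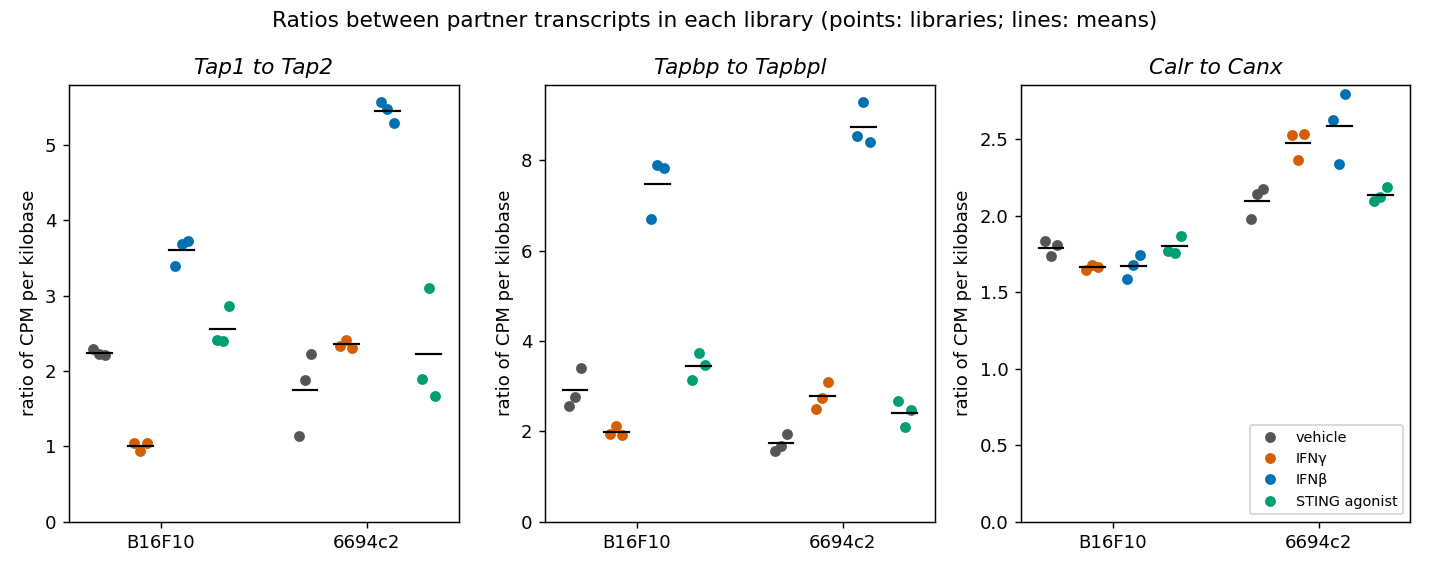
Ratio of partner transcripts in CPM per kilobase in each library, for Tap1 to Tap2, Tapbp to Tapbpl and Calr to Canx; points are libraries (3 per group), lines are means and every axis starts at 0. IFNβ libraries have the highest Tap1 to Tap2 and Tapbp to Tapbpl ratios in both lines, with means of 3.60 and 7.48 in B16F10 and 5.45 and 8.75 in 6694c2 cells.

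The STING agonist was tested to see whether tumor cells respond to it directly. In B16F10 cells 4 of the 8 genes rose and 0 fell (1.93% and 1.53% of all genes), with a median log2 fold change of 0.50 for the group against 0 for all genes tested. Tapbp went to 70.9, 68.97 and 63.1 CPM, a 1.75-fold rise (log2 fold change 0.81, standard error 0.0618, adjusted p = 5.77e-30). Tap1 went to 12.6, 11.1 and 9.23 CPM (1.58-fold, adjusted p = 2.67e-08), Tapbpl to 16.1, 13.2 and 12.999 (1.47-fold, adjusted p = 1.06e-06) and Erap1 to 26.5, 28.5 and 28.5 (1.43-fold, adjusted p = 3.63e-09). For these 4 genes every library with STING agonist lay above every vehicle library, and the share of all genes that separate in this way was not counted. Tap2 gave 3.59, 3.21 and 2.23 CPM, overlapping vehicle, and its 1.40-fold difference did not pass (adjusted p = 0.0901), though it did on leaving out vehicle replicate 2 (0.63 on the log2 scale, adjusted p = 0.0453) or without STING agonist replicate 3 (0.66, adjusted p = 0.0184). Calr, Canx and Pdia3 differed by 0.025, 0.020 and -0.037, with 95% intervals that ran from -0.14 at the lowest to 0.12 at the highest. The rises were small beside those with IFNβ, as Tap1 stood 13.1-fold, Tap2 9.14-fold, Tapbp 5.04-fold, Erap1 3.30-fold and Tapbpl 2.32-fold lower with STING agonist than with IFNβ, while Calr and Canx stood 1.25-fold and 1.16-fold higher (5 members lower and 2 higher, against 11% and 8.76% of all genes). Pdia3 stood 1.09-fold higher (adjusted p = 0.0601) and passed in 6 of 14 alternative fits, DESeq2 among them (adjusted p = 0.00425).

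Epithelial transcripts were also higher in the B16F10 libraries with STING agonist. The sum of the 9 epithelial markers was 113 to 148 CPM with STING agonist against 15.8 to 22.7 with vehicle, 5 of the 9 were called higher (1.93% of all genes), and the difference equalled 0.799% of the sum in 6694c2 vehicle libraries. Set against each gene's highest mean in 6694c2 cells, the rise with STING agonist in B16F10 cells was 4.06% for Tapbp, 3.86% for Erap1, 2.47% for Tapbpl, 1.09% for Tap1 and 0.808% for Tap2. For these genes the highest mean was that with IFNγ, whereas the marker sum was taken with vehicle. Calr, Canx and Pdia3, which were not called, gave 1.99%, 2.41% and -2.04% of their means with IFNβ. The part of the epithelial transcripts in these differences was not tested.

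In 6694c2 cells the STING agonist changed 0 of the 8 genes in either direction (0.203% of all genes higher and 0.156% lower by edgeR), and DESeq2 also called 0. At an unadjusted p under 0.05, as for 1650 of the 21138 genes, Tapbp was higher and Tapbpl lower. Tap1 gave 2.91, 2.27 and 2.22 CPM, 1 library above the vehicle range and the others below it, and Tap2 gave 1.06, 0.505 and 0.915. Tapbp gave 33.8, 28.5 and 32.4 CPM, above all vehicle libraries, for a log2 fold change of 0.25 with a 95% interval from 0.089 to 0.40 (adjusted p = 0.287). Intervals for Tap1 (-0.43 to 0.16), Tapbpl (-0.44 to -0.050), Erap1 (-0.29 to 0.074), Calr (-0.16 to 0.079), Canx (-0.19 to 0.066) and Pdia3 (-0.24 to 0.012) had upper ends of at most 0.16 on the log2 scale. The interval of Tap2 was the widest, from -1.03 to 0.038.

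The response itself was compared between the lines by the interaction of line and treatment over all 24 libraries. A positive difference means a higher signed log2 fold change in 6694c2 cells, which is not always a larger response. With IFNγ, the log2 fold change was higher in 6694c2 than in B16F10 cells for 3 of 8 genes and lower for 1 (4.52% and 4.95% of all genes). The differences of log2 fold changes were 1.85 for Tap1 (adjusted p = 2.2e-10), 0.76 for Tapbp (adjusted p = 1.58e-06), 0.37 for Calr (adjusted p = 0.000278) and -0.47 for Tapbpl (adjusted p = 0.00875). For Calr the difference joins a call of lower in B16F10 cells to a value of 0.17 that did not pass in 6694c2 cells. For Tap1 the lower vehicle level of 6694c2 cells and their higher level with IFNγ both entered. The call for Tapbpl was lost without B16F10 vehicle replicate 3 (-0.32, adjusted p = 0.120) or 6694c2 vehicle replicate 1 (-0.36, adjusted p = 0.0695). Tap2 differed by 0.14 and Erap1 by -0.19, with 95% intervals from -0.39 to 0.68 and from -0.41 to 0.034.

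With IFNβ, the log2 fold change was higher in 6694c2 cells for 7 of 8 genes and lower for 0 (6.16% and 5.9% of all genes). Tap1, Tap2, Tapbp, Tapbpl and Erap1 rose in both lines, so for these the fold rise was larger in 6694c2 cells. For Tap2 the mean level with IFNβ was alike, 27.2 CPM in B16F10 and 26.4 in 6694c2 cells. Its vehicle means were 2.10 and 1.16 CPM, so its larger fold rise came with the lower vehicle level. Tap1 led with 1.89 (adjusted p = 1.1e-10), followed by Tapbp with 1.61 (adjusted p = 6.38e-15), Erap1 and Tap2 with 0.82 each, Tapbpl with 0.63 and Calr with 0.62. The call for Erap1 was firm (adjusted p = 1.28e-06), whereas that for Tap2 (adjusted p = 0.0436) was lost in 8 of 18 alternative fits, among them those without B16F10 vehicle replicate 2 or 3, B16F10 IFNβ replicate 1, 6694c2 vehicle replicate 2 or 3, or 6694c2 IFNβ replicate 2 or 3 (0.62 to 0.84, adjusted p up to 0.199). Pdia3, lower in B16F10 cells (-0.16) and not called in 6694c2 cells (0.13), differed by 0.27 (adjusted p = 0.0231) and lost its call without 6694c2 vehicle replicate 1 or 2 or without 6694c2 IFNβ replicate 2 (adjusted p = 0.0673, 0.0608 and 0.0611). Canx differed by 0.21 (adjusted p = 0.0895) and passed without B16F10 vehicle replicate 1 or 3, B16F10 IFNβ replicate 1 or 2 or 6694c2 vehicle replicate 1 (0.26 to 0.30, adjusted p = 0.0160 to 0.0463). With all libraries kept, Canx passed with DESeq2 (0.21, adjusted p = 0.0333). Calr was the member that fell in B16F10 and rose in 6694c2 cells.

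With the STING agonist, the log2 fold change was lower in 6694c2 than in B16F10 cells for 4 of 8 genes and higher for 0 (1.56% and 0.568% of all genes). The differences were -0.81 for Tapbpl (adjusted p = 0.000219), -0.64 for Erap1 (adjusted p = 0.00109), -0.57 for Tapbp (adjusted p = 0.00149) and -0.81 for Tap1 (adjusted p = 0.0441). The last of these lost its call in 9 of 18 alternative fits, all of them fits without 1 library (any vehicle library but B16F10 replicate 2, B16F10 STING agonist replicate 1 or 2, or 6694c2 STING agonist replicate 2 or 3; -0.85 to -0.64, adjusted p up to 0.135). Tap2 showed the largest difference, -0.999, with an interval from -1.71 to -0.28 and an adjusted p of 0.184. It passed in 1 of 18 alternative fits, that with DESeq2 (-1.02, adjusted p = 0.0323).

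**Figure D5:**
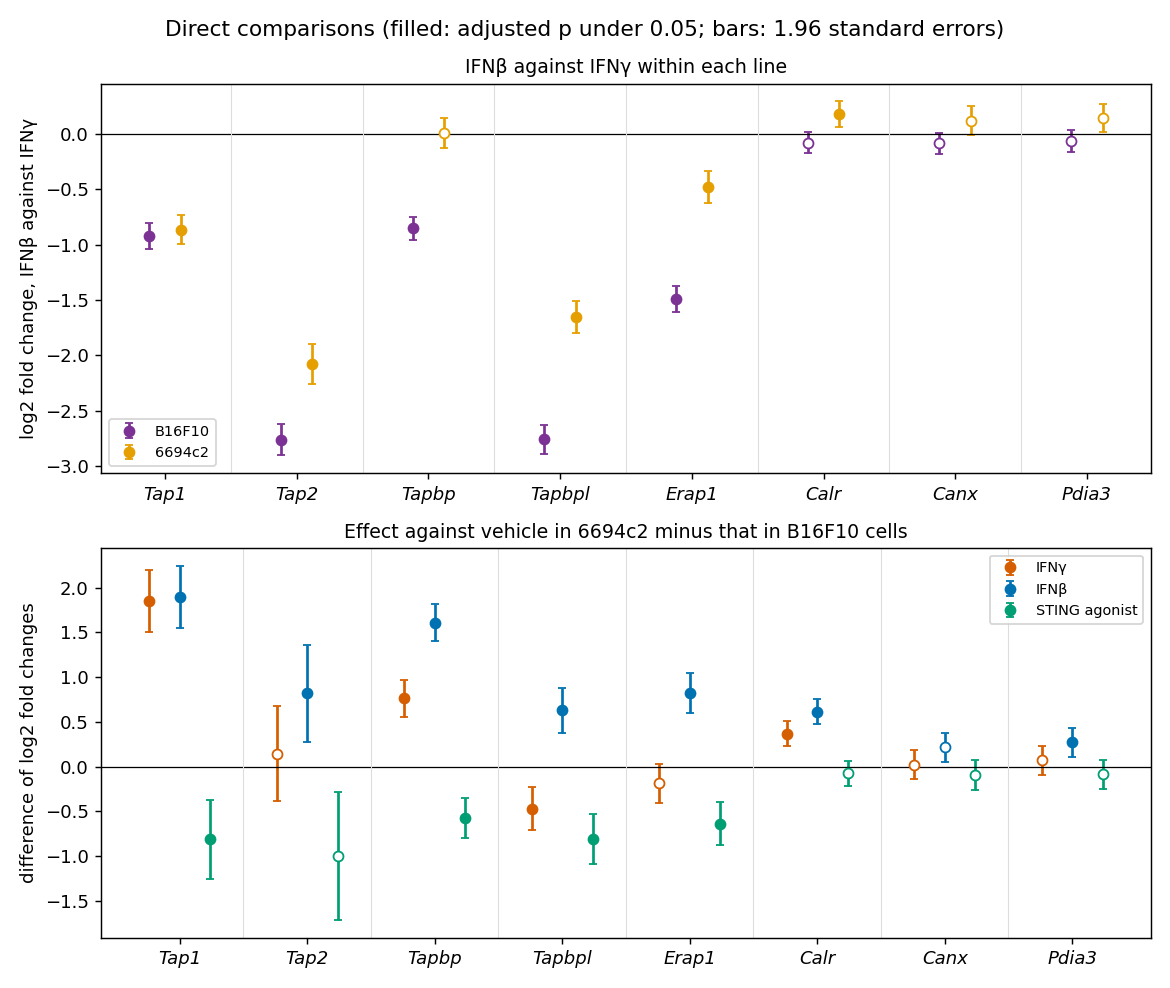
Top, log2 fold change of IFNβ against IFNγ in B16F10 and 6694c2 cells; bottom, the log2 fold change against vehicle in 6694c2 cells minus that in B16F10 cells for each treatment. Filled points passed an adjusted p under 0.05 and bars are 95% intervals; Tapbp is at -0.85 in B16F10 and 0.0058 in 6694c2 cells at the top, and at the bottom 7 of 8 IFNβ points are filled above 0 and 4 STING agonist points are filled below it.

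Genes before and after these steps in the pathway moved in the same comparisons. Of 9 class I chain and proteasome genes, 8 rose with each interferon in each line, including B2m, the class I light chain (log2 fold change 2.697 with IFNγ and 2.66 with IFNβ in B16F10 cells), and the immunoproteasome subunit gene Psmb10 (4.08 and 2.50 in B16F10, 4.399 and 4.17 in 6694c2 cells). Among all genes, 12% and 12.7% were higher with IFNγ and IFNβ in B16F10 cells, and 7.89% and 10.4% in 6694c2 cells. Psmb9, the neighbour of Tap1, rose by 6.48 with IFNγ in B16F10 and 7.12 in 6694c2 cells. The exception was Abcb9, a TAP-like peptide pump of lysosomes, which was lower with IFNγ in B16F10 cells (-0.69) and with IFNβ in 6694c2 cells (-1.55), where 10.8% and 7.86% of all genes were lower. With the STING agonist 6 of the 9 rose in B16F10 cells, led by B2m (0.75) and Psme1, a proteasome activator subunit (0.59), and 0 in 6694c2 cells. The shares of all genes called higher were 1.93% in B16F10 and 0.203% in 6694c2 cells. Psmb9 with IFNβ was lower than with IFNγ by -2.64 in B16F10 and -2.01 in 6694c2 cells, beside -2.76 and -2.08 for Tap2.

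Of 8 regulators of class I transcription, 7 rose and 0 fell with IFNγ in B16F10 cells, and 5 rose and 1, Rfxap, fell with IFNβ (-0.29). In 6694c2 cells 6 rose and 0 fell with either interferon. The shares of all genes called higher in these comparisons were 12%, 12.7%, 7.89% and 10.4%. Those called lower were 10.8%, 11.2%, 5.66% and 7.86%, and 1 lower gene of 8 cannot be set apart from them. Irf1, a transcription factor of the interferon response, went from 12.3 to 637 CPM with IFNγ and to 39.3 with IFNβ in B16F10 cells, and from 22.2 to 573 and 105.5 in 6694c2 cells. Nlrc5, the class I transactivator, went from 0.919 to 88.1 and 22.9 CPM in B16F10 cells. Stat2 and Irf9, partners in the type I interferon complex, were higher with IFNβ than with IFNγ, by 0.38 and 0.45 in B16F10 and by 1.14 and 0.88 in 6694c2 cells. With the STING agonist 5 regulators rose in B16F10 (1.93% of all genes) and 0 in 6694c2 cells (0.203%), with Stat2 at 1.04 and Irf1 at 0.44 in B16F10 cells. The log2 fold change of both was lower in 6694c2 cells, by -0.68 and -0.53.

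The wider set of endoplasmic reticulum folding genes gave the setting for Calr, Canx and Pdia3. Of 22 such genes, 3 rose and 8 fell with IFNγ in B16F10 cells, where 12% of all genes were higher and 10.8% lower, and 2 rose and 7 fell with IFNβ, against 12.7% and 11.2%. In 6694c2 cells 6 rose and 1 fell with IFNγ, against 7.89% and 5.66%, and 12 rose and 0 fell with IFNβ, against 10.4% and 7.86%. The rises in B16F10 cells were a share of the list near that of all genes. Hsp90b1, the chaperone GRP94, fell by 0.33 with IFNγ and by 0.42 with IFNβ in B16F10 cells, while Hyou1 and Hspa5, chaperones of the stress response, rose with IFNβ by 0.56 and 0.48 in 6694c2 cells. The stress factor gene Ddit3 went against the fall in B16F10 cells, rising by 0.76 with IFNγ, 1.91 with IFNβ and 0.74 with the STING agonist, and it was the single gene of the 22 to change with the STING agonist. By the interaction test with IFNβ, the signed log2 fold change was higher in 6694c2 than in B16F10 cells for 11 of the 22 and lower for 2 (6.16% and 5.9% of all genes), and Hsp90b1, one of the 11, fell in B16F10 cells and differed by 0.11 with no call in 6694c2 cells. The difference was 0.57 for Hspa5, the highest of the 22, and 0.62 for Calr. With the STING agonist 0 of the 22 changed in 6694c2 cells, where 0.203% of all genes were higher and 0.156% lower.

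The genes whose group means were most like those of selected members were found by the root mean square distance of log2 CPM over the 8 groups, centred within each line. For Tap1 these were Irgm2, an interferon-inducible GTPase (0.171), Gbp3, a guanylate-binding protein (0.347), and Parp14 (0.389), against a median of 2.90 over all genes tested. For Erap1 they were AA467197 (0.153), which averaged 1.23 CPM, Psme2 (0.183) and Psme2b (0.244), against 1.60. Psme2 and Psme2b are near-identical copies whose reads can be shared. For Calr they were Cilp2 (0.0402), which averaged 0.0256 CPM, the collagen lysyl hydroxylase Plod1 (0.0439) and Snhg6 (0.0446), against 0.246. Over most libraries Calr varies little, so closeness to it says less than closeness to Tap1.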

How the data were processed

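Bulk RNA of 24 cell culture libraries was sequenced in paired ends. The authors trimmed adaptors with cutadapt 1.14, aligned with STAR 2.7.9a, counted reads per gene with Rsubread and deposited raw counts with no normalization, on mm10 per the labels. The annotation, strandedness and treatment of multi-mapping reads are not given in the sources used here. Single-cell samples were not analysed here. All counts entered as deposited, with 15543131 to 32266795 reads per library.

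The study's minimum of 10 reads in the sum of all 24 libraries was applied, which left 21138 genes to test. Each line's 12 libraries were fitted with group means after TMM normalization in edgeR 4.0.16 (R 4.3.3) and tested by its quasi-likelihood test with Benjamini-Hochberg adjustment over all genes tested, called at an adjusted p under 0.05. The vehicle comparison between lines and the interactions used all 24 libraries. Standard errors are the log2 fold change divided by the root of F, and 95% intervals span 1.96 of them on either side. Samples were grouped by their titles. The smallest p of an exact permutation test between groups of 3 is 0.1. Statements that libraries of 2 groups did not overlap describe the named genes, and the share of all genes with such a separation was not counted.

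The members and lists were chosen with earlier results of these data known. The 8 members are named in every comparison, with up to 4 genes of smallest p from lists of class I chains and proteasome, class I regulators, endoplasmic reticulum folding and other peptidases, and the 3 nearest patterns to Tap1, Erap1 and Calr. Abcb9 and Rfxap were named after their values were seen. Alternatives were RLE size factors, scaling to total reads, the filterByExpr minimum, no filter, other libraries in the fit, DESeq2 1.42.0, fits that each left out 1 library and a block for the replicate number. The fits were tested on simulated data. Replicate numbers are in the titles, and their pairing was checked. Some values and details of the study are not reported here.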

Additional observations from a re-analysis of the deposited data

Results flagged for a closer look

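The response to treatment differed between the lines for 15 combinations of member and treatment by the interaction test of edgeR over 24 libraries, with values given as the log2 fold change in 6694c2 minus that in B16F10 cells. With IFNγ these were 1.85 for Tap1, 0.76 for Tapbp, 0.37 for Calr and -0.47 for Tapbpl. With IFNβ they were 1.89 for Tap1, 0.82 for Tap2, 1.61 for Tapbp, 0.63 for Tapbpl, 0.82 for Erap1, 0.62 for Calr and 0.27 for Pdia3. With the STING agonist they were -0.81 for Tap1, -0.57 for Tapbp, -0.81 for Tapbpl and -0.64 for Erap1. The 3 treatments share the vehicle libraries of each line, so these differences are not independent of each other.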

How the results depend on the processing

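Of 1536 repeats of the 104 member results under the alternatives, 1452 kept their direction and their side of the threshold, 33 lost the call, 32 gained it and 19 changed sign. All 14 alternatives kept the calls of Tap1, Tap2, Tapbp, Tapbpl and Erap1 with IFNγ and with IFNβ in each line. Every change of sign was in a difference that had not passed. Members lower with IFNγ in B16F10 cells numbered 1, against 3 when scaled to total reads or with only the 2 groups in the fit and 2 with DESeq2. Members higher with IFNβ than with IFNγ in 6694c2 cells numbered 1, against 0 with RLE size factors, total reads, no filter or only the 2 groups, and 0 to 1 with each library left out. Members higher in 6694c2 than in B16F10 vehicle libraries numbered 0, against 1 with the filterByExpr minimum or DESeq2 and 0 to 1 with each library left out. Members with a lower log2 fold change with IFNγ in 6694c2 than in B16F10 cells numbered 1, or 0 to 1 with each library left out. The cause was not tested.

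Tapbp with IFNβ against IFNγ in 6694c2 cells went from 0.0058 to -0.00891 (RLE), -0.0197 (total reads), -0.0123 (filterByExpr), -0.00514 (no filter), -0.0139 (all 24 libraries) and -0.00899 (DESeq2), and ranged from -0.051 to 0.072 with each library left out. With total reads Canx with IFNβ in 6694c2 cells went to -0.00871 and Pdia3 with IFNβ against IFNγ in B16F10 cells to 0.000223. With each library left out, other differences that crossed 0 were Canx with IFNβ (-0.017 to 0.097) and Pdia3 with IFNγ (-0.051 to 0.046) and Erap1 with STING agonist (-0.21 to 0.035) in 6694c2 cells, Erap1 between vehicle libraries (-0.18 to 0.064), and the interactions with IFNγ of Tap2 (-0.057 to 0.51) and Canx (-0.034 to 0.081).

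Scaling to total reads moved the median of all genes from -0.0057 to -0.19 between the vehicle libraries, where Erap1 and Pdia3 then stood at -0.22 and -0.24 and were called. Genes higher and lower over all genes moved from 2188 and 1662 to 1652 and 2251 with IFNβ in 6694c2 cells, from 1303 and 1248 to 947 and 1740 in its interaction, from 1406 and 1659 to 2209 and 1206 with IFNβ against IFNγ in B16F10 cells, and from 6076 and 6188 to 5158 and 7258 between vehicle libraries. With STING agonist the 408 higher and 324 lower genes of B16F10 cells became 453 and 187 with total reads, 354 and 105 with all 24 libraries and 643 and 628 with only the 2 groups, with 205 lower under filterByExpr and 270 to 350 higher and 127 to 218 lower with each library left out (288 and 127 without STING agonist replicate 3). The 43 higher and 33 lower genes of 6694c2 cells became 99 and 60 without a filter, 42 and 50 with all 24 libraries, with 22 higher under filterByExpr, 83 with only the 2 groups and 16 to 67 with each library left out. The interaction with STING agonist (120 higher and 329 lower) became 213 higher without a filter and 243 and 500 with DESeq2, and 51 to 135 higher with each library left out. The interactions with IFNγ and IFNβ, with 1046 and 1248 lower, fell to 648 and 779 without B16F10 vehicle replicate 1.

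The correlation of same-numbered deviations lay between -0.323 and 0.195 in B16F10 and between -0.290 and 0.245 in 6694c2 cells. These values gave no consistent sign of pairing by replicate number, and with 3 libraries per group they cannot exclude it. Differently numbered libraries reached 0.386 (B16F10 IFNγ 1 with IFNβ 3) and -0.390 (6694c2 vehicle 1 with IFNβ 3). With a replicate block, Pdia3 with STING agonist against IFNβ in B16F10 cells passed (0.13, adjusted p = 0.0305), the genes higher with STING agonist in 6694c2 cells numbered 82, and the other calls of members kept their side of the threshold. The block was 1 of 6 alternative fits, out of 14, in which this difference of Pdia3 passed. Low reads of Tap1 and Tap2 with vehicle limit the precision of their fold changes.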
